A study of Mus musculus with 2 samples.

Results

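The genes described here encode heat shock factors, their binding protein, small heat shock proteins and a co-chaperone that works with them. They are Hsf1, Hsf2, Hsf4, Hsbp1, Hspb1, Cryab, Hspb6, Hspb8 and Bag3, chosen by symbol. Probes outside the controls were taken where the gene name column of the array files equalled one of these symbols, which gave 11 probes for 9 genes, of 56605 probes under 37074 names. Of the 9 genes, 7 had 1 probe each, and Hsf4 and Hspb6 had 2 each. RNA from mouse blood was labelled with Cy3 and hybridised to Agilent arrays, 1 for heated blood and 1 for control blood. Heating was 1 h at 38.5 °C, which followed 1 h at 37 °C in a water bath. No temperature or time was given for the control, so the heating, the water bath before it and the handling cannot be told apart. Strain, age and sex, and whether animals or drawn blood were heated, are not given in the sources used here. With 1 array per group, no difference below has a replicate check or a p-value, and the number of arrays limits the precision. The protocols mention 3 replicates per line, but the study holds only these 2 samples, with 1 array per group.

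Heat shock factors are transcription factors that assemble into trimers and bind heat shock elements, which are inverted repeats of the bases GAA in the promoters of chaperone genes. HSF1 is present before stress and drives the classical heat shock response, and HSBP1 binds the trimers and dampens their activity. Small heat shock proteins share an alpha-crystallin domain, form large assemblies and hold unfolding proteins in solution without using ATP. BAG3 links small heat shock proteins, HSPB8 above all, to HSP70 and to autophagy of damaged proteins.

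Cell markers set the frame for these values. All 8 monocyte and macrophage markers were well above background on both arrays, as were 6 of 8 T cell markers, 5 of 8 neutrophil markers, 3 of 8 platelet markers, 2 of 8 B cell markers and 1 of 8 erythroid markers. Ms4a1 of B cells, Alas2 of red cell precursors and the globin gene Hbb-b1 were not. Hba-a1, the erythroid marker detected, had 82.4 in heated and 66.4 in control blood at its brightest spot. Its difference as a gene was only 0.03 on the log2 scale, so that spot does not stand for the gene. The neutrophil markers Cxcr2, Ly6g and Retnlg were detected on neither array. Among the monocyte and macrophage markers, Cd68 had 149430 in heated and 151480 in control blood, and Adgre1 53394 and 55563. Which cells the label blood stands for was not tested. Of 8 skeletal and cardiac muscle markers, tissues in which several small heat shock proteins are abundant, only Tnni2 was detected, and Ckm, Des and Mb were not. In bulk RNA, fewer cells of a type and less RNA per cell cannot be told apart. Some marker lists differed by amounts like those of the genes below. The 3 measured platelet markers were all higher in heated blood, with a median difference of 0.26 on the log2 scale, and the list's summed signal was 12269 in heated blood and 10507 in control blood. The median was 0.18 over 2 B cell markers, 0.16 over 6 T cell markers, 0.05 over 8 monocyte and macrophage markers and 0.01 over 5 neutrophil markers. Ccr2, a chemokine receptor of monocytes, was past 1.5-fold at 0.73, with 113 in heated blood and 69.9 in control blood. The part of cell composition in the differences below was not tested. Both arrays lay on 1 slide and were scanned in 1 run.

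None of the measured genes was 2-fold apart between the arrays, and Hsf1, Hsf2 and Hsbp1 lay within 0.1 of 0. A gene was measured where at least 1 probe carried the scanner software's flag for a signal well above background on both arrays. This held for 10 of the 11 probes (90.9%) and 8 of the 9 genes, against 50.8% of all probes. Each difference below is the log2 signal of heated blood minus that of control blood, after subtraction of each array's 75th percentile. Of the 8 genes, 4 were above 0 and 4 below, with a median of 0.00 and a range of -0.44 for Cryab to 0.38 for Hspb6. Those above 0 include Hsf4, whose 2 probes had opposite signs, and Hspb1, whose difference was smaller than its error. The count at 2-fold was 0 of 8, where 0.663% of 18562 genes measured on both arrays passed it, and at 1.5-fold also 0 of 8, where 2.98% passed. The median over all those genes was 0.01, and 47.8% of them were below 0. With a background this low, counts of 0 among 8 genes do not set them apart from the rest of the array.

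**Figure D1:**
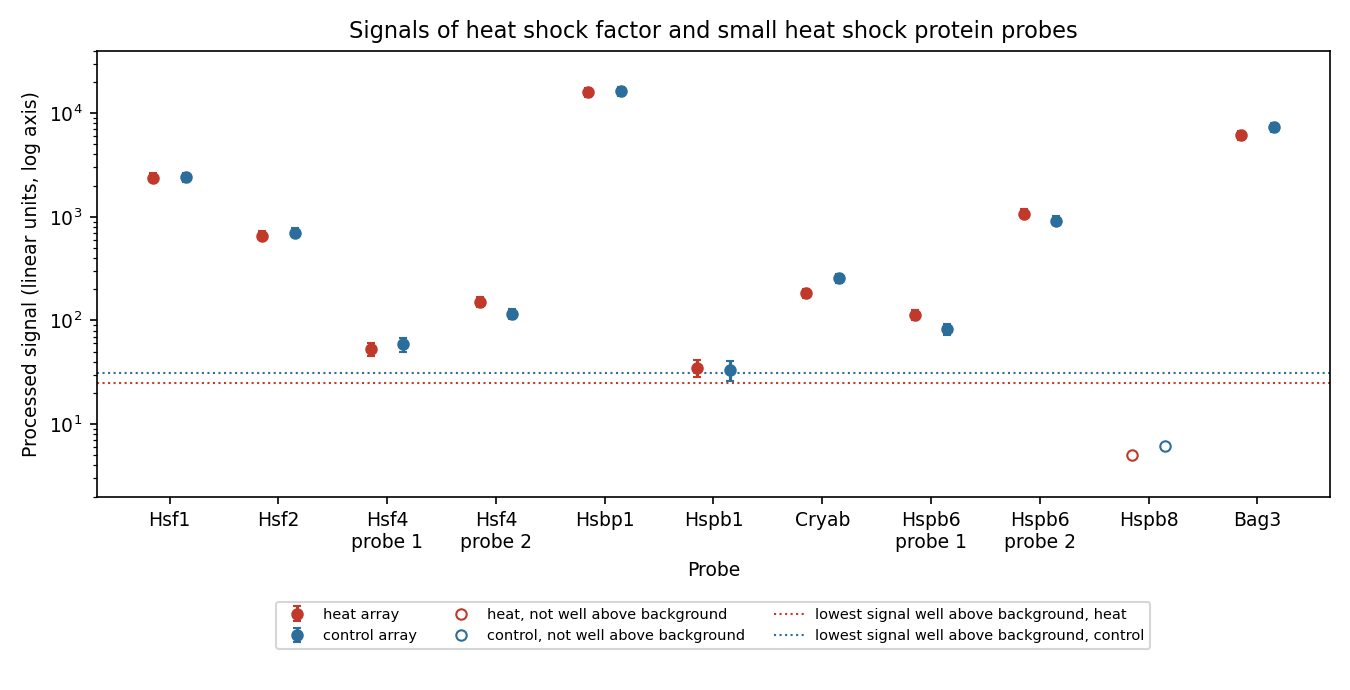
Processed signal (linear units on a log axis) of each of the 11 probes in heated (red) and control (blue) blood, with bars for the scanner software's own error. Probes differ in how they bind, so heights are comparable only within a probe. The pairs nearly coincide for Hsf1, Hsf2 and Hsbp1, Hspb1 lies just above the lowest signals well above background (dotted lines), and Hspb8 (open circles) lies below them on both arrays.

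Hsf1, the main regulator of the heat shock response, had a processed signal of 2390 ± 239 in heated blood and 2431 ± 243 in control blood, where ± is the error the scanner software assigns to the spot. After scaling, the difference was 0.01, with an error of 0.20 from those 2 spot errors. Its probe lies at chromosome 15, 76331176 to 76331235 (mm9, as for all probe positions here). Among 1414 detected probes of like level, within 0.25 on the log2 scale, 89.4% were at least as far from 0.

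Hsf2, a relative of HSF1 that forms mixed trimers with it, had signals of 658 ± 66.0 in heated blood and 702 ± 70.5 in control blood, a difference of -0.06. Hsbp1, the binding protein of the factors, had 15826 ± 1583 in heated blood and 16340 ± 1634 in control blood, a difference of -0.01 that turned to 0.075 and 0.054 with normexp background correction. Both signals of each gene lay within the other's error, and the share of like-level probes at least as far from 0 was 68.6% for Hsf2 and 93.7% for Hsbp1. The Hsf2 probe lies at chromosome 10, 57232832 to 57232891, and the Hsbp1 probe at chromosome 8, 121872688 to 121872747.

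Hsf4, a factor best known from the lens, had 2 probes with opposite signs. The first lies at chromosome 8, 107798959 to 107799409, a stretch of 451 bases for a 60-base probe, so it crosses an exon junction. It had 52.8 ± 7.73 in heated blood and 59.3 ± 9.19 in control blood, a difference of -0.13. The second lies at chromosome 8, 107799573 to 107799632, and had 151 ± 16.1 in heated blood and 117 ± 13.3 in control blood, a difference of 0.41. Their mean was 0.14, and the brighter probe alone gave 0.41, so no single direction can be given for Hsf4.

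Other heat shock factor genes, listed because they belong to the same family, mostly lacked the flag for a signal well above background. Neither probe of Hsf3 carried it, nor did the probe of Hsfy2. Hsf5, a factor known from spermatogenesis, was the exception and carried it in heated blood only. Its probe at chromosome 11, 87449507 to 87449566, had a processed signal of 218 ± 22.3 in heated blood, against 6.34 ± 6.36 in control blood. The uncorrected mean signal was 279 in heated blood over a local background of 40.0, and 48.8 in control blood over 39.0. Set against the lowest flagged signal in control blood, 31.0, Hsf5 was at least 7.22-fold higher in heated blood. The other Hsf5 probe, at chromosome 11, 87472974 to 87473028, carried the flag on neither array, with 5.05 in heated and 6.19 in control blood. The 2 probes thus disagree. Of 1716 probes flagged in heated blood alone, 12 had a bound at least as large (0.699%).

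**Figure D2:**
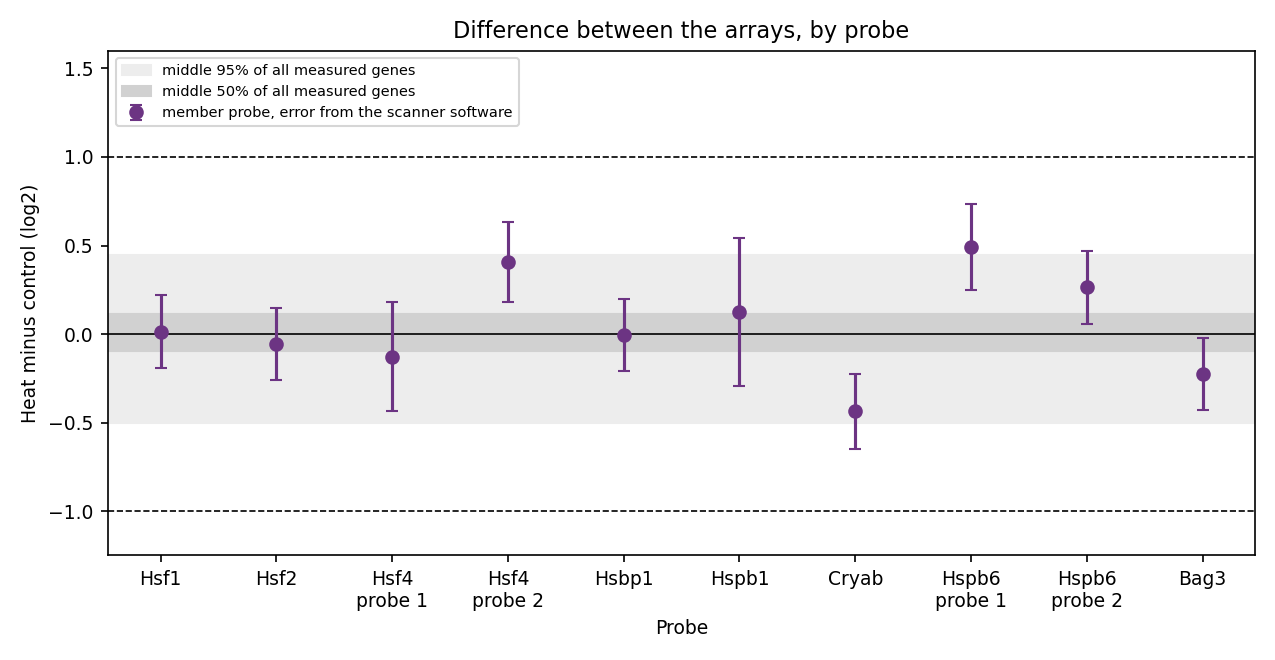
Heat minus control (log2) for the 10 probes well above background on both arrays, with bars for the error that follows from the scanner software's spot errors. Grey bands hold the middle 50% and the middle 95% of 18562 genes, and dashed lines mark 2-fold. Cryab lies lowest at -0.44 and the first Hspb6 probe highest at 0.49, and every probe lies inside the dashed lines.

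Among the small heat shock proteins, Cryab was lower and Hspb6 higher in heated blood, Hspb1 was near the detection limit and Hspb8 was not detected. Cryab encodes alpha-B crystallin, a chaperone of lens and muscle. Its signal was 184 ± 19.1 in heated blood and 256 ± 26.3 in control blood, a difference of -0.44 with an error of 0.21, or 0.74 times the control. Its 2 signals fall on either side of 200. Repeated spots varied by an SD of 0.185 over 8 other probes with signals of 50 to 200 and of 0.095 over 3 with signals of 200 to 1000, and 6.63% of 1689 probes of Cryab's level were at least as far from 0. With normexp background correction and the 75th percentile the difference was -0.28. The probe lies at chromosome 9, 50564566 to 50564625. Hspb2, the neighbour of Cryab on the other strand, was detected on neither array, with 5.26 in heated blood and 6.47 in control blood.

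Hspb6, which encodes HSP20, a small heat shock protein of muscle, was higher at both of its probes. The probe over an exon junction, at chromosome 7, 31339385 to 31339528, had 113 ± 12.5 in heated blood and 82.6 ± 10.5 in control blood, a difference of 0.49. The probe at chromosome 7, 31340398 to 31340457, had 1074 ± 108 in heated blood and 919 ± 92.2 in control blood, a difference of 0.26. Their mean was 0.38, or 1.30 times the control, beside the median of 0.26 for the platelet markers. Of probes of like level, 9.98% were at least as far from 0 as the first and 10.1% as the second. A probe for Lin37 lies 98 bases beyond the second probe on the other strand, and its difference was 0.09.

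The junction probes of Hsf4 and Hspb6 are shown because they read spliced RNA of the genes whose 2 probes can be compared. Each is 60 bases long, printed 5′ to 3′ as the array files give it, and has at least 1 of 3 forward reading frames free of stop codons.
Hsf4: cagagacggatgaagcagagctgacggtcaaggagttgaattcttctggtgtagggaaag
Hspb6: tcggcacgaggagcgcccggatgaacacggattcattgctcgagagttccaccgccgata

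Hspb1 encodes HSP27, a widely expressed small heat shock protein and a classical target of HSF1. Its signal was 35.1 ± 6.77 in heated blood and 33.1 ± 7.17 in control blood, near the lowest flagged signals, which were 24.9 in heated blood and 31.0 in control blood. The difference of 0.12 had an error of 0.42, and normexp with quantile normalization gave 0.01. The single probe, at chromosome 5, 136365366 to 136365425, thus gave a difference smaller than its own error.

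Hspb8, the small heat shock protein that pairs with BAG3, was detected on neither array. The mean signals of its probe, 43.7 in heated blood and 37.3 in control blood, lay under the local backgrounds of 46.5 in heated and 40.0 in control blood. The processed signals, 5.03 in heated and 6.21 in control blood, are substitutes that the software sets for spots it cannot tell from background, so no difference is given. The probe lies at chromosome 5, 116859063 to 116859122.

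Bag3, the co-chaperone that carries small heat shock protein clients to HSP70, was lower in heated blood, with 6090 ± 609 against 7322 ± 732 in control blood. The difference was -0.23 with an error of 0.20, or 0.85 times the control. Spots of 269 repeated probes with signals over 1000 varied by an SD of 0.074, and 7.37% of 1045 probes of like level were at least as far from 0. The probe lies at chromosome 7, 135690420 to 135690479. The difference kept its sign under all 10 alternative processings, between -0.24 and -0.18, but these are not separate checks. Bag3 has 1 probe and no outlier spot, so changes in the choice of probes or spots could not move it. The authors' values repeat quantile normalization, and every processing used the same spot on each array.

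**Figure D3:**
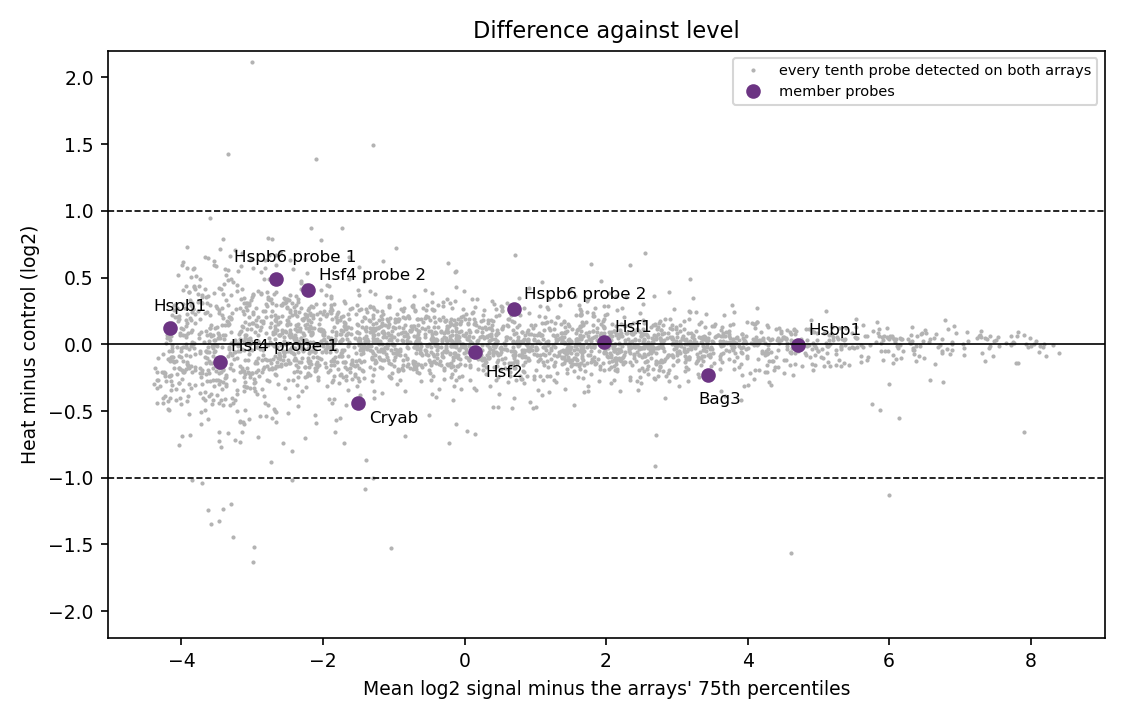
Heat minus control (log2) against the mean log2 signal of both arrays, for the 10 detected member probes (purple) and 2876 of 28755 probes detected on both arrays (grey). The grey cloud widens toward dim probes, and the member probes lie within it. Dashed lines mark 2-fold.

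Other small heat shock protein and BAG genes measured on both arrays were not 2-fold apart. Of 6 other small heat shock protein genes, only Hspb9, a testis member, was measured on both arrays, with 95.8 in heated blood and 119 in control blood and a difference of -0.27. Cryaa of the lens and Hspb3 and Hspb7 of muscle were detected on neither array, nor was Hspb2. Odf1, of the sperm tail, had 21.5 in heated blood and 44.0 in control blood, was flagged in control blood only and was at least 1.72-fold higher there. Of 702 probes flagged in control blood alone, 29.6% had a bound of 2-fold or more, so the Odf1 bound does not stand out. All 5 other BAG genes were measured, with Bag4 at -0.13, Bag2 at -0.12, Bag5 at -0.08, Bag1 at -0.06 and Bag6 at 0.10. The 2 Bag2 probes had opposite signs, -0.32 and 0.08.

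Genes listed here as HSF1 targets were close to 0 as a list. The list also holds HSP70 relatives such as Hspa5 and Hspa1l, and whether HSF1 drives each gene in these cells was not tested. Of 32, 29 were measured, 11 above and 18 below 0, with a median of -0.02 beside 0.01 over all genes, and 0 of 29 were 2-fold apart. Over all measured genes 0.663% were 2-fold apart and 47.8% lay below 0, so a count of 0 among 29 does not set the list apart. Hspa1b and Hspa1a, which encode the inducible HSP70 and are so alike that a probe may bind both, had the highest differences at 0.31 and 0.28, from signals of 808 in heated against 669 in control blood for Hspa1b and 849 in heated against 719 in control blood for Hspa1a. Hspbap1, an HSPB1-associated protein, followed at 0.18. Ier5, an activator of HSF1, and Cacybp, which encodes the calcyclin-binding protein, were lowest at -0.38 each, and Hsph1, which encodes HSP105, had -0.30. Dnajb1, the HSP40 partner of HSP70, had 0.03. Hspa1l, an HSP70 gene of the testis named after its value was seen, passed in heated blood alone, with 87.3 against 20.6 in control blood, and was at least 2.89-fold higher. Of the probes that passed in heated blood alone, 8.8% had a bound of 2-fold or more.

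Regulators of HSF1 lay within -0.09 to 0.22 as gene means, and probes of 1 gene could differ. Crebbp had a mean of 0.01 over 3 probes, while its brightest probe had 7391 in heated and 9207 in control blood. The brightest Trrap probe had 2391 in heated and 2423 in control blood, and that of Nup98 3406 and 3529. Of 24 listed partners and modifying enzymes, 23 were measured, 9 above and 14 below 0, with a median of -0.02. Over all measured genes, 47.8% lay below 0, and whether the list departs from that share was not tested. Trrap, a cofactor of histone acetyltransferases, was highest at 0.22 as a mean over 4 probes. Tpr of the nuclear pore had 0.18 and the kinase gene Mapkapk2, whose product phosphorylates HSPB1, 0.09. Nup98 of the nuclear pore was lowest at -0.09, Smarca4, a chromatin remodeller, had -0.08 and Rpa1, a single-strand DNA binding protein that assists HSF1, -0.07. Hsbp1l1, a relative of Hsbp1, was not well above background.

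Partners of BAG3 and HSPB8 in chaperone-assisted autophagy had a median of -0.03 over 14 measured genes of 15. Of the 14, 6 were above and 8 below 0, where 47.8% of all measured genes lay below 0. The lists share genes, so their medians are not separate observations. Hspa8 and Sqstm1 are also listed as HSF1 targets, and Stub1 and Hdac6 as regulators of HSF1. Hspa4 is both a listed target and a listed regulator. Tsc1, an inhibitor of mTOR signalling that BAG3 recruits, had 0.34, Yap1, a transcriptional coactivator, 0.31 and the actin cross-linker Flna 0.13. The Tsc1 and Flna values are means over 2 probes each. Their brightest probes had 2214 in heated and 2059 in control blood for Tsc1, and 74214 and 74074 for Flna. Yap1 was measured at 1 of its 2 probes, with 125 in heated and 103 in control blood. Flnc, the muscle filamin cleared through BAG3, had -0.25, the kinase gene Lats1 -0.18 and Dynll1, a dynein light chain, -0.14. The Flnc signals were dim, 32.9 in heated blood and 40.0 in control blood.

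**Figure D4:**
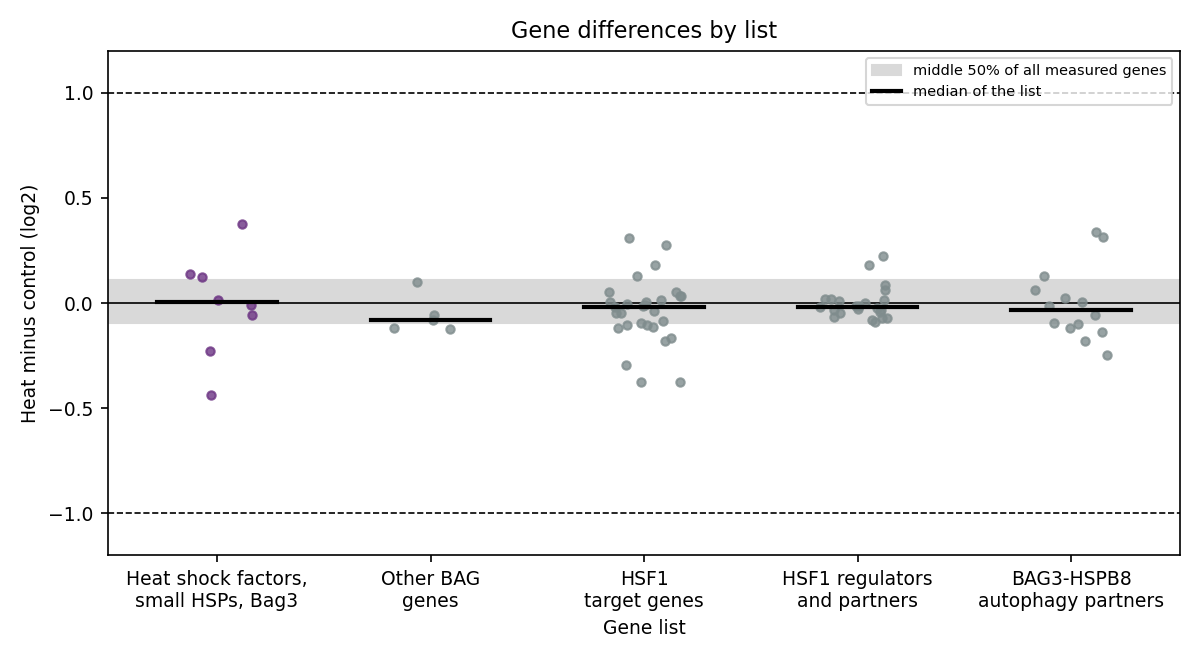
Heat minus control (log2) of each measured gene (points) in 5 lists, with the list's median as a bar and the middle 50% of all measured genes in grey. The medians of the lists lie between -0.08 for the other BAG genes and 0.00 for the heat shock factors and small heat shock proteins, and no point reaches the dashed 2-fold lines.

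Promoter sequences bear on which of these genes carry the letters that heat shock factors bind. RefSeq windows (GRCm38.p6) of 250 bases before to 50 bases after the start were matched for 6 of the 9 genes, with 7 windows. A 3-unit element, GAANNTTCNNGAA or TTCNNGAANNTTC (each the other's reverse complement), was in 0 of the 7, and in 0.603% of all 32851 windows. The shorter 2-unit element, GAANNTTC or TTCNNGAA, each its own reverse complement and contained in the longer one, was in 4 of the 7 and in 15.1% of all windows. Hspb1 held it at positions -117 and -97 and Hspb6 at -120 of its second listed start, while the matches in Hspb8 and Bag3 lay after the start. A match is a description of letters and not a binding site. The stretches from -150 to -51 are shown for Hspb1 and Hspb6, where capitals mark the GAA and TTC units, at chr5:135887769-135887868 and chr7:30553151-30553250, both on the plus strand and printed 5′ to 3′.
Hspb1: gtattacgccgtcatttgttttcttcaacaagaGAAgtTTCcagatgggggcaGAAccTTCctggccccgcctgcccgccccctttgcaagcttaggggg
Hspb6: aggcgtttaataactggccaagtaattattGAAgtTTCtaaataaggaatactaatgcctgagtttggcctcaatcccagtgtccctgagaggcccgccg

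Among measured genes with a 2-unit element, the difference was 0.12 for Hspb1, at the edge of detection, 0.38 for Hspb6 and -0.23 for Bag3. Hsf2 and Hsbp1, whose windows held no 2-unit element, had -0.06 and -0.01. No relation between the element and the difference can be read from so few genes.

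**Figure D5:**
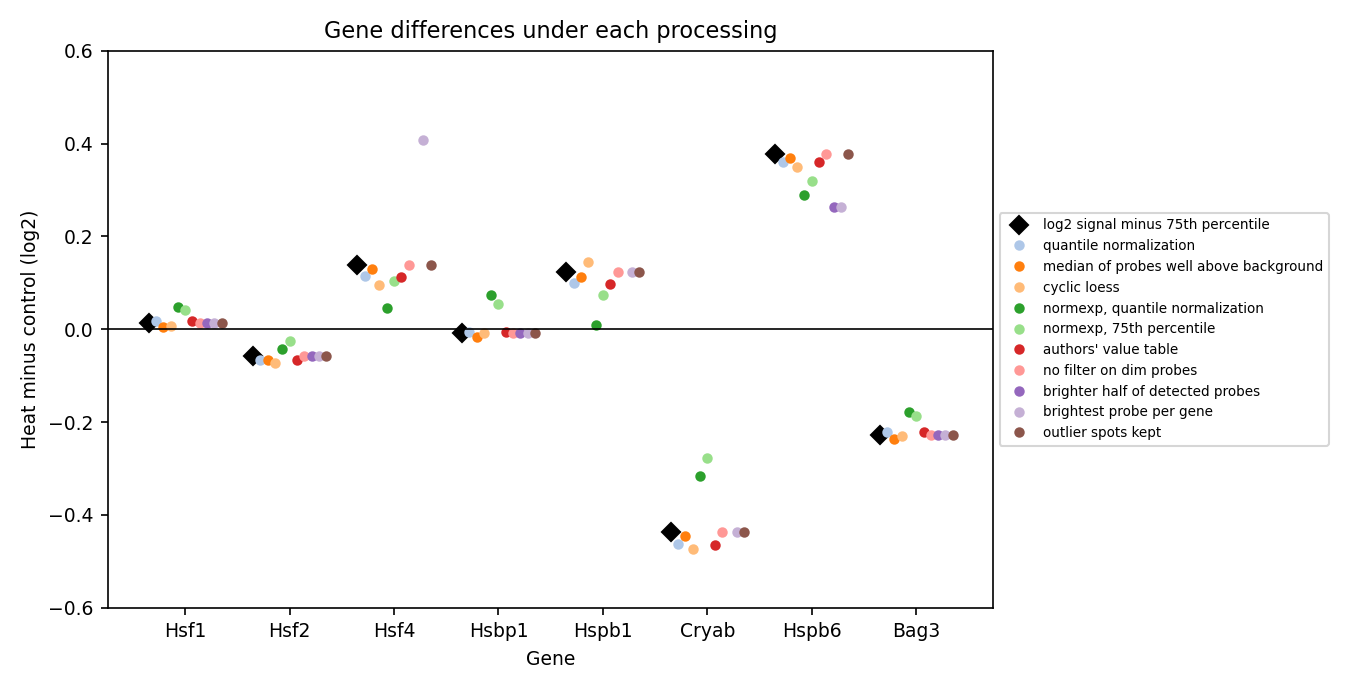
Heat minus control (log2) of the 8 measured genes under the processing used here (black diamonds) and 10 alternatives (coloured points). Cryab (9 alternatives gave a value) and Bag3 stay below 0 and Hspb6 above 0 under each that gave one, Hsbp1 crosses 0, and the Hsf4 value of 0.41 comes from its brighter probe. Alternatives that change only the choice of probes or spots could not move a gene with 1 probe.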

How the data were processed

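Blood RNA of 1 heated and 1 control sample was measured on 1-colour arrays. Image analysis used Agilent Feature Extraction 10.7.1.1 with protocol GE1_107_Sep09 and mm9 probe positions, per the file headers, while the submitters' processing notes name version 9.1. The deposited scanner files hold linear intensity values of the green channel with their errors, and other spot flags (well above background, saturated, outlier), per the file headers. The authors' deposited log2 values matched quantile-normalized log2 processed signals (r of 1.0 on each array), with a median of 5.26 in each column, in the direction of the scanner files.

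Spots flagged as outliers, 168 for heated and 149 for control blood, were dropped. None was saturated, and spots of a probe were averaged after log2. Each array's 75th percentile over probes (604 for heated and 620 for control blood) was subtracted. Gene values average the differences of those probes that were marked as well above background on each of the arrays. Where a gene passed on 1 array only, the fold is a lower bound against the lowest signal well above background on the other array, or the dim probe's own signal where higher. Repeated spots came from 300 probes at 10 spots each. The members, lists and the rule for named genes (every member and every family relative, then the 3 highest and 3 lowest of each other list, with Hspa1a, Hspa1b, Dnajb1 and Hsph1) were chosen with earlier results of these data known. The arithmetic of the steps was tested on simulated data whose noise was set well under the 2-fold threshold, so that test gives no error rate for these arrays. The tools were Python 3.11.15 with numpy 2.4.6, pandas 2.3.3 and matplotlib 3.10.9, and R 4.3.3 with data.table (version 1.17.8) and limma 3.58.1. The alternatives are listed in the closing section.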

Additional observations from a re-analysis of the deposited data

How the results depend on the processing

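The processing was varied by keeping outlier spots, by keeping dim probes, by the brightest probe of each gene, by the detected probes above the median level, and by a 1.5-fold threshold. The scaling was varied by cyclic loess, quantile normalization, the detected probes' median, the authors' values, and normexp (offset 50) followed by either the 75th percentile or quantile normalization. Of 110 values so obtained, 105 moved by less than the spread of repeated spots or, for counts, by less than 1.5 times. Many of the 105 could not move, so they are not separate checks. No spot of the genes described here was an outlier, and genes with 1 probe do not depend on the choice of probe. The authors' values repeat quantile normalization, and counts that stayed at 0 have no ratio. With normexp and quantile normalization, Hsbp1 had 0.075 and Cryab -0.32, and with normexp and the 75th percentile Cryab had -0.28. The brightest probe gave 0.41 for Hsf4. With dim probes kept, Hspb8 had -0.27, from substitute signals, and 1 gene of the HSF1 target list, Hspa1l, was 2-fold apart. Over all genes, the 39 higher and 84 lower genes at 2-fold became 11 and 27 with normexp and quantile normalization, 12 and 24 with normexp and the 75th percentile, 727 and 1008 with dim probes kept, and 3 and 14 among the brighter probes, and none of the 8 measured genes was among them under any of these. With dim probes kept, the median of all genes was -0.10, and these differences are to be read against it. Hsf4, Hspb1 and Cryab have no value among the brighter probes. Signals near background limit Hspb1, Hspb8 and the first Hsf4 probe. No paired analysis was possible because each group held 1 array.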

Other observations

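Across the genome, 179 genes had a 3-unit heat shock element in a RefSeq promoter window, and 59 of them were measured on both arrays under the same symbol. Of these 59, 23 were above and 36 below 0, with a median of -0.04 and a range of -0.53 to 0.55. Over all measured genes, 47.8% lay below 0. At 2-fold, 0 of the 59 were apart, where 0.663% of all measured genes were. The median was 0.00 over 10372 measured genes whose windows lacked the element. Of 28 HSF1 target genes with a window, 4 held it, namely Hsph1 at -0.30, Chordc1, an HSP90 partner, at -0.12, and Hspd1 and Hspe1 of the mitochondrial chaperonin at -0.10 each, which share a promoter region and so are not independent. This set of genes was chosen after other values had been seen, and neither the share below 0 nor the difference between the medians was tested.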
